A study of Mus musculus with 12 samples.

Results

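The genes described here encode the subunits of the mitochondrial respiratory chain and the ATP synthase, together with the Ndufaf assembly factors of complex I. They were taken as all probe sets whose gene symbol starts with Nduf, Uqcr, Atp5 or Cox4 to Cox8, or is Sdha, Sdhb, Sdhc or Sdhd, without symbols that contain -ps. This found 119 of the 35556 probe sets on the array. Of these, 114 carried 1 gene symbol and stood for 89 of the 19938 genes tested. The other 5 listed a further gene beside Cox7c or Ndufb4 and are given no value. By the complex they belong to, the 89 genes comprise 34 subunits of complex I, 4 of complex II, 8 of complex III, 17 of complex IV and 17 of complex V. The remaining genes are 7 complex I assembly factors and 2 genes outside these classes, Cox7a2l and Ndufa4l2. Ndufa4 was counted with complex IV, where the protein resides.

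RNA came from mouse bone marrow progenitors selected for c-Kit, the receptor of stem cell factor. The donors were Zfx fl/y CreER mice (labelled Zfx ko) and Zfx wt/y CreER mice (labelled Zfx wt), so both genotypes carried the tamoxifen-inducible Cre and both received tamoxifen. Cells were infected with a retrovirus that carries Myc and a GFP marker, or with the control virus that carries GFP alone, sorted for GFP 48 hours later, and then kept in culture for 4 days. The medium held SCF, IL-6 and IL-3, each at 10 ng/mL. The 4 groups, with 3 gene arrays each, are called Myc ko, Myc wt, GFP ko and GFP wt here, after their labels. In the Myc groups the viral Myc comes on top of the cells' own gene. The labels name neither the promoter that drives CreER nor the animals' age, nor whether replicates came from separate animals or cultures, so p-values measure the spread between these arrays, which may be technical.

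In mitochondria, complex I oxidises NADH and complex II oxidises succinate, and both pass electrons through ubiquinone to complex III and through cytochrome c to complex IV, which reduces oxygen. Complexes I, III and IV pump protons, and complex V uses the proton gradient to make ATP. All subunits of complex II are nuclear genes, whereas the other complexes also hold subunits encoded by mitochondrial DNA, which the rule does not take in. Myc is a transcription factor known to raise genes of growth and mitochondrial biogenesis in many cells, and Zfx is a zinc finger transcription factor on the X chromosome that blood stem cells need.

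The deposited values are linear RMA intensities, a probe set's brightness after background correction and quantile normalization. The 12 arrays had medians of 127 to 137 over all probe sets, and arrays of 1 group correlated at 0.988 to 0.996. Of the 89 genes, 85 were brighter on average than the median of all probe sets, and Cox7b2, Cox8b, Cox8c and Ndufa4l2 were not. The Zfx probe set read 1036, 1116 and 991 on the Myc ko arrays and 1019, 991 and 966 on the Myc wt arrays. It read 996, 972 and 1094 on the GFP ko arrays and 862, 987 and 989 on the GFP wt arrays. Zfx was thus not lower on the arrays labelled Zfx ko under either virus, and whether its probes lie in the deleted part is not given in the sources used here. Every comparison of ko with wt below is of arrays so labelled. Myc was 1.87-fold higher on the Myc ko than on the GFP ko arrays and 1.74-fold higher on the Myc wt than on the GFP wt arrays (limma adjusted p = 0.000342 and 0.000724).

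With Myc virus, some genes of complexes I, II, III and V and of complex I assembly rose modestly. No gene of the 89 fell in the fit of all 12 arrays without the replicate block. On the arrays labelled Zfx ko, 24 of the 89 genes rose with Myc (27.0%), where 8.58% of all genes tested rose and 4.59% fell. On the arrays labelled Zfx wt, 11 of 89 rose (12.4%), where 6.17% of all genes tested rose and 3.11% fell. The wt count rests on single arrays: without GFP wt array 3 it was 1 of 89, where 2.82% of all genes rose, so the share was then no longer above that of all genes. It was 4 without Myc wt array 3, where 2.93% did, 4 without Myc wt array 1, where 3.98% did, and 7 without GFP wt array 1, where 4.04% did. Without Myc wt array 1, Ndufaf3 fell. Calls are at a Benjamini-Hochberg adjusted p below 0.05 in limma over all genes. Same-numbered arrays of different groups deviate together, and with the replicate number as a block 37 genes rose in ko, where 14.5% of all genes did, and 28 in wt, where 12.2% did. In the blocked fit 0 genes fell in ko and 1 in wt, Ndufaf3, where 10.4% and 8.25% of all genes fell. All 11 genes that rose in wt also rose in ko. The median log2 difference of the 89 genes was 0.17 in ko and 0.14 in wt, against 0.01 and 0.00 over all genes. Changes were small: the highest fold among the 89 was 1.74, for Ndufaf4 in ko.

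In ko, all 3 Myc arrays lay above all 3 GFP arrays for 46 of the 89 genes and below them for 2, where 15.6% and 9.88% of all genes did. In wt they lay above for 42 and below for 3, where 15.1% and 9.44% of all genes did. The counts by class stand beside shares of all genes that rose of 8.58% in ko and 6.17% in wt. Complex I assembly had 4 of 7 higher in ko and 3 of 7 in wt. Complex I had 10 of 34 in ko and 5 in wt, complex II 2 of 4 and 1, complex III 3 of 8 and 1, complex V 5 of 17 and 1. The complex V share in wt, 5.88%, was not above that of all genes. Complex IV had 0 of 17 in both, which for so few genes is near the shares of all genes. With the replicate block the counts in ko and wt were 5 and 5 for complex I assembly, 17 and 12 for complex I, 4 and 3 for complex II, 3 and 4 for complex III, 8 and 4 for complex V, and again 0 and 0 for complex IV. With the block 14.5% of all genes rose in ko and 12.2% in wt. No test of one class against another was made.

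**Figure D1:**
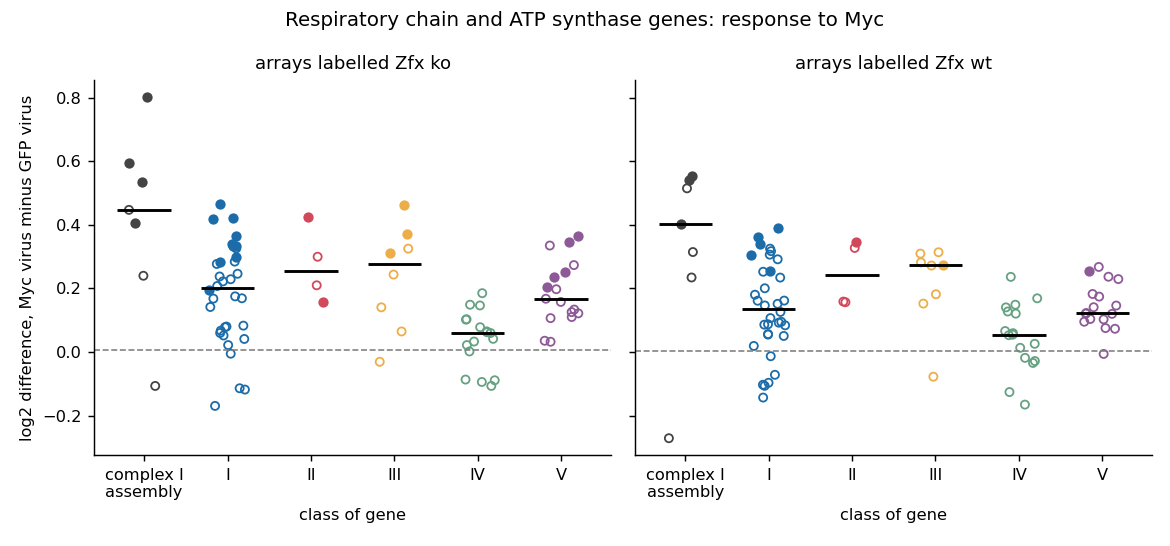
Log2 difference, Myc virus minus GFP virus, for each gene (1 point) by class, on arrays labelled Zfx ko (left) and Zfx wt (right); filled points passed an adjusted p of 0.05 in limma, black bars are class medians and the dashed line is the median of all genes. Complex IV has no filled point in either panel and medians of 0.06 and 0.05, and complex I assembly has the highest medians, 0.45 and 0.40.

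Markers of other cell states moved with virus as well. Of all genes 4.59% fell with Myc in ko and 3.11% in wt (10.4% and 8.25% with the block). Of 14 measured neutrophil markers 11 fell with Myc in ko and 7 in wt (14 and 13 with the block). Their summed intensity ranged over 48556 to 56275 on the Myc ko arrays and 41444 to 56987 on the Myc wt arrays, against 79450 to 99112 on the GFP ko arrays and 80038 to 98452 on the GFP wt arrays. Among mast cell and basophil markers 6 of 14 fell in each genotype and 1 rose in wt. With the block 8 fell in ko and 7 in wt, and 1 rose in wt. Of 8 erythroid markers 5 rose with Myc in ko and 1 in wt (7 and 3 with the block). Of all genes 8.58% and 6.17% rose (14.5% and 12.2% with the block). The erythroid sums were 6011 to 11252 on the Myc ko, 4766 to 6376.5 on the Myc wt, 4392 to 5062 on the GFP ko and 3829 to 4778 on the GFP wt arrays. Among 9 monocyte and macrophage markers 0 passed in ko and 1 fell in wt, and with the block 4 fell in ko and 3 in wt. Their sums were 12034 to 19682 on the Myc ko and 8564 to 16393 on the Myc wt arrays. On the GFP ko arrays they were 20509 to 24208 and on the GFP wt arrays 16179 to 21948.5. No marker was at 0, and no probe set on these arrays was. The part of these shifts in the results on respiratory chain genes was not tested, and in such bulk RNA fewer cells of a type and less RNA per cell cannot be told apart.

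Promoter sequence was used for 73 of the 89 genes (RefSeq, GRCm38.p6), as 78 windows from 250 bases before to 50 bases after each start. Letters of 4 motifs were searched on both strands, the E-box CACGTG that Myc binds, a short form of the NRF1 site, GCGCNTGCG, the ETS core CCGGAAG and the YY1 site AAGATGGC. The NRF1 letters stood in 33.3% of the windows of these genes and in 6.31% of 32851 windows of all genes. A form with 1 more C at its end was searched first, and the shorter form replaced it after those shares had been seen. The longer form stood in 24.4% and 4.60%, and in 6.94% of the windows of the genes tested. The ETS letters stood in 23.1% and 8.86%, the YY1 letters in 12.8% and 2.75%, and the E-box in 8.97% and 7.15%. Median GC content was 58.0% in the windows of these genes, 52.7% in all windows and 57.7% in windows of the genes tested, among which 9.33% held the NRF1 letters, 12.1% the ETS letters, 3.19% the YY1 letters and 8.26% the E-box. Of 18 genes with a window that rose with Myc in ko, 10 held the NRF1 letters and 1 the E-box, and of 55 that did not, 15 and 5 did. The ETS letters stood in 4 of the 18 and 14 of the 55, and the YY1 letters in 3 and 7. The longer NRF1 form stood in 8 of the 18 and 10 of the 55. A match describes the letters only. NRF1 letters can match on both strands 1 base apart, and no 2 different motifs overlap in the windows shown.

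The 6 windows below are shown because their genes carry the findings. They are 1 gene of each class, the one with the lowest adjusted p in ko among those that rose and hold a match, and for complex IV, in which no gene passed, Cox6b1, the gene with the largest difference in ko among those with a match. Capitals mark NRF1 or ETS letters on either strand. Sdhd lies on the minus strand of chr9:50603800-50604099, with NRF1 letters from 78 bases before the start and ETS letters from 46 before it. Uqcrc1 lies on the plus strand of chr9:108936398-108936697 and holds NRF1 letters at 2 places, both after the start. Atp5k is on the minus strand of chr5:108434350-108434649, Ndufaf5 on the plus strand of chr2:140170396-140170695, Ndufs3 on the minus strand of chr2:90904672-90904971 and Cox6b1 on the minus strand of chr7:30626065-30626364.
Ndufaf5: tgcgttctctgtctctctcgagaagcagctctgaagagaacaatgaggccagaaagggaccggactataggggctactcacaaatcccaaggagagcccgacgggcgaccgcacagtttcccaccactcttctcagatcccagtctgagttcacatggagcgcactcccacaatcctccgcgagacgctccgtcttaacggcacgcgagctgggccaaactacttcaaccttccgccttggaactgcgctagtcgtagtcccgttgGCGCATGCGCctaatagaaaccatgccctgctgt
Ndufs3: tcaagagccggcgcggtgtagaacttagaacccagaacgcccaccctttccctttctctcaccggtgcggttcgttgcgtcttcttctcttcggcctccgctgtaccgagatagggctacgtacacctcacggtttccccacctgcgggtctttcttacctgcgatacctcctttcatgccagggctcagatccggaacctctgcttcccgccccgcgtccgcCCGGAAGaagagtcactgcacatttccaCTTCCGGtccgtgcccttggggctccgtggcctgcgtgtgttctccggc
Sdhd: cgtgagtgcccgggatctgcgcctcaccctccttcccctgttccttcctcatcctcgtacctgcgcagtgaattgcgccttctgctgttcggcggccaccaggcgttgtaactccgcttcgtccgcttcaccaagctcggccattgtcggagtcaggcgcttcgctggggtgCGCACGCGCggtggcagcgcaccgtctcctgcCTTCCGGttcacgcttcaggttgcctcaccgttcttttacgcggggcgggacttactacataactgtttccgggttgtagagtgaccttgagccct
Uqcrc1: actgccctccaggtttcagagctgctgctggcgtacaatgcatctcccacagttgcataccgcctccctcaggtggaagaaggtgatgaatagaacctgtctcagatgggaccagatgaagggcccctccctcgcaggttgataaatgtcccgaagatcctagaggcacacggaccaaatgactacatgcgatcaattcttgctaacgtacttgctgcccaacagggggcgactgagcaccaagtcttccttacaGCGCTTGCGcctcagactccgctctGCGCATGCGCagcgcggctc
Atp5k: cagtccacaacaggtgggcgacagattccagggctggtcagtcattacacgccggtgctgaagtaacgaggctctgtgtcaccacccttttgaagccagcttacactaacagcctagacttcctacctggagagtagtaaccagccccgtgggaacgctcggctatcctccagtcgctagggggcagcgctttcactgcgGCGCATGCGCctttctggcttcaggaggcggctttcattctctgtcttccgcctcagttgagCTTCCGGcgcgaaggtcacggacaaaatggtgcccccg
Cox6b1: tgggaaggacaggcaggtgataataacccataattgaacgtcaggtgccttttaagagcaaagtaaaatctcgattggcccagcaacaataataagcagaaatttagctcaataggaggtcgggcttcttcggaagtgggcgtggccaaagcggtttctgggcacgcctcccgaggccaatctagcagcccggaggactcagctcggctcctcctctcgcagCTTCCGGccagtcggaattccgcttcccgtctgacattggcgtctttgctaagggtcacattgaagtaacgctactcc

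The assembly factors of complex I had the largest changes. They are not subunits of the finished enzyme but help to build it. Ndufaf6, needed for the synthesis of a mitochondrially encoded subunit, read 209, 196 and 198 on the Myc ko arrays and 247, 196 and 214 on the Myc wt arrays. On the GFP ko arrays it read 137, 132 and 147 and on the GFP wt arrays 164, 147 and 139. The Myc and GFP arrays did not overlap in either genotype, and the fold was 1.45 in ko (95% interval 1.26 to 1.66, limma adjusted p = 0.00416) and 1.45 in wt (1.27 to 1.67, adjusted p = 0.00589). Ndufaf5, which hydroxylates a core subunit and whose window is printed above, read 241, 270 and 260 on the Myc ko arrays and 153, 168 and 191 on the GFP ko arrays. On the wt arrays it read 231, 221 and 213 with Myc and 177, 165 and 162 with GFP. Its fold was 1.51 in ko and 1.32 in wt (limma adjusted p = 0.00185 and 0.0133).

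Ndufaf4, which takes part in early assembly with Ndufaf3, read 706, 835 and 816 on the Myc ko arrays and 353, 494 and 520 on the GFP ko arrays. In wt it read 815, 798 and 720 with Myc and 529, 555 and 502 with GFP. All Myc arrays were above all GFP arrays, with a fold of 1.74 in ko (1.42 to 2.14, limma adjusted p = 0.00381) and 1.47 in wt (1.20 to 1.80, adjusted p = 0.0251). GFP ko array 1 was the lowest of the 12. Ndufaf2 rose in ko only by the threshold, at 1.32-fold with limma adjusted p = 0.0425, against 1.24-fold and 0.133 in wt, and the difference between genotypes did not pass. With the replicate block Ndufaf2 also passed in wt (adjusted p = 0.0131). The call of Ndufaf2 in ko was lost in 9 of 13 alternative fits.

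Ndufaf1, a factor that joins membrane parts of complex I, read 712, 778 and 822 on the Myc ko and 690, 697 and 810 on the Myc wt arrays, against 442, 634 and 642 on the GFP ko and 454, 588 and 500 on the GFP wt arrays. The groups did not overlap, yet limma gave an adjusted p of 0.0755 in ko and 0.0558 in wt without the block, and 0.00908 and 0.00585 with it. Ndufaf7, a methyltransferase, had folds of 1.18 in both genotypes and did not pass. Ndufaf3 went the other way, with 1313, 1154 and 1347 on the Myc ko arrays against 1346, 1337 and 1415 on the GFP ko arrays, and 1385, 1056 and 1099 on the Myc wt arrays against 1499, 1297 and 1451 on the GFP wt arrays. Its fold was 0.929 in ko and 0.829 in wt (limma adjusted p = 0.691 and 0.155), and in wt it passed only with the block (adjusted p = 0.0349).

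Within complex I itself, the genes that rose in ko included 5 of the 6 nuclear core subunits analysed here, the ones that carry flavin and iron-sulfur centres or bind ubiquinone (Ndufs1, Ndufs3, Ndufs7, Ndufs8, Ndufv1 and Ndufv2). In wt 2 of these 6 rose. Their median log2 difference was 0.33 in ko and 0.28 in wt, against 0.17 and 0.10 for the 28 accessory subunits, of which 5 rose in ko and 3 in wt. This split was made after values were seen and was not tested.

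The core subunit Ndufs3 read 3207, 3297 and 3523 on the Myc ko arrays and 2863, 2781 and 2932 on the Myc wt arrays. It read 2179, 2651 and 2685 on the GFP ko arrays and 2177, 2301 and 2068 on the GFP wt arrays. The Myc arrays lay above the GFP arrays in both genotypes, with a fold of 1.34 in ko (1.18 to 1.52, limma adjusted p = 0.00802) and 1.31 in wt (1.16 to 1.49, adjusted p = 0.0147). Ndufv1, the NADH-binding subunit, read 2580, 2481 and 2827 on the Myc ko and 2352, 2133 and 2360 on the Myc wt arrays, against 1793, 2126 and 2218 on the GFP ko and 1778, 1917 and 1714 on the GFP wt arrays. Its fold was 1.29 in ko and 1.27 in wt (limma adjusted p = 0.0217 and 0.0376). Ndufs8 and Ndufs1, both iron-sulfur subunits, rose in ko by 1.23-fold and 1.34-fold (limma adjusted p = 0.0164 and 0.0268) and did not pass in wt at 1.09-fold and 1.25-fold. With the block Ndufs1 also passed in wt (adjusted p = 0.0232).

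Among accessory subunits, Ndufab1, the mitochondrial acyl carrier protein, read 1466, 1295 and 1502 on the Myc ko arrays and 1541, 1434 and 1464 on the Myc wt arrays. It read 999, 1048 and 1037 on the GFP ko arrays and 1152, 1244 and 1066 on the GFP wt arrays. The groups were apart in both genotypes, at 1.38-fold in ko (1.23 to 1.54, limma adjusted p = 0.00311) and 1.28-fold in wt (1.15 to 1.44, adjusted p = 0.0124). Ndufa10 read 4044, 3693 and 4042 on the Myc ko and 3991, 3758 and 3940 on the Myc wt arrays, against 3153, 2995 and 3206 on the GFP ko and 3401, 3133 and 3267 on the GFP wt arrays. It rose 1.26-fold in ko and 1.19-fold in wt (limma adjusted p = 0.00476 and 0.0202). Ndufa8, a subunit of the intermembrane space side, rose 1.26-fold in ko and 1.24-fold in wt (limma adjusted p = 0.00949 and 0.0185), with values given below.

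Some accessory subunits did not follow. Ndufb11 read 5140, 5271 and 5024 on the Myc ko and 5010, 5180 and 5135 on the Myc wt arrays, against 5539, 5591 and 5616 on the GFP ko and 5365, 5519 and 5609 on the GFP wt arrays. Myc arrays were below all GFP arrays in both genotypes, by a small margin, at 0.922-fold and 0.929-fold (limma adjusted p = 0.114 and 0.187). The second probe set of Ndufb11 had log2 differences of -0.01 and 0.00, so its probe sets disagreed in size. Of the 25 probe sets beyond the brightest of their gene, 24 had the same sign as the brightest in ko and 23 in wt. The second probe sets of Ndufs3 and Ndufab1 rose as well (limma over all probe sets, adjusted p = 0.0115 and 0.00852 in ko, and 0.03 and 0.0311 in wt).

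**Figure D2:**
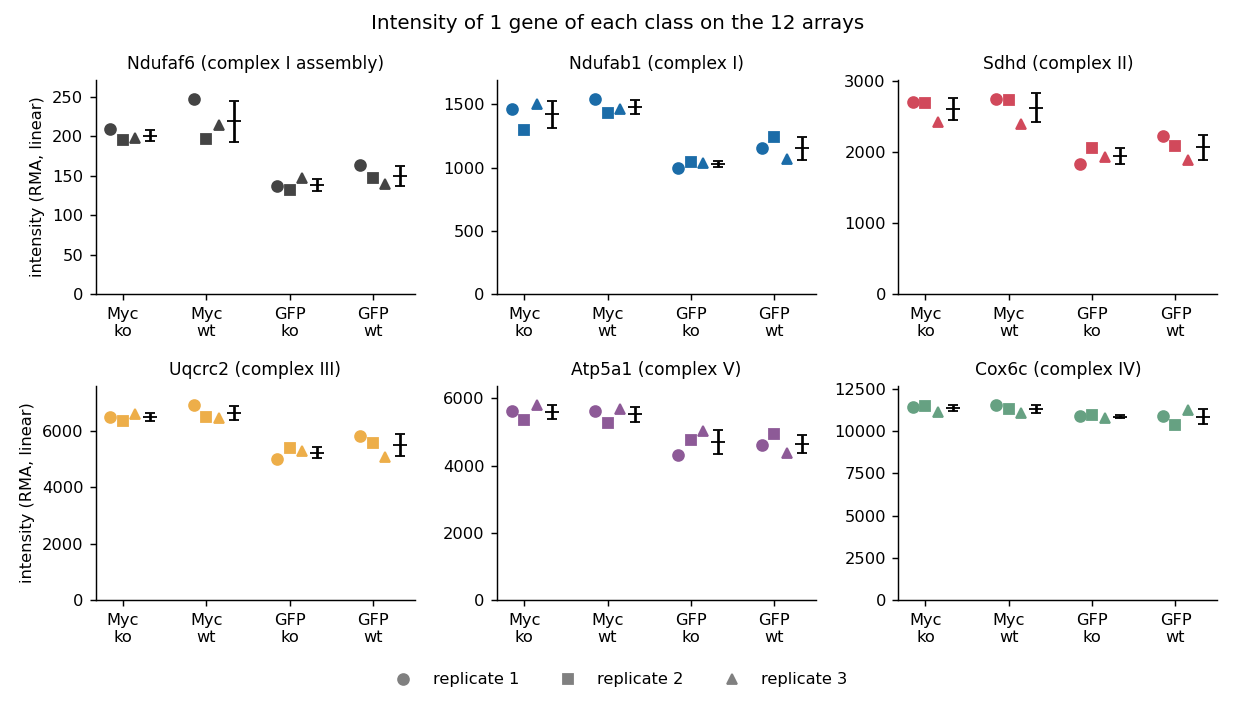
Linear RMA intensity of 1 gene of each class on the 12 arrays, with the mean and SD of 3 arrays beside the points of each group; symbols give the replicate number and every axis starts at 0. For Ndufaf6, Ndufab1, Sdhd, Uqcrc2 and Atp5a1 all Myc arrays lie above the GFP arrays of the same genotype, and Cox6c differs little between groups.

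All 4 complex II genes had positive differences. Sdhd, a membrane anchor, read 2710, 2693 and 2432 on the Myc ko arrays and 2748, 2741 and 2399 on the Myc wt arrays. It read 1834, 2065 and 1937 on the GFP ko arrays and 2224, 2090 and 1888 on the GFP wt arrays. All Myc arrays exceeded all GFP arrays, at 1.34-fold in ko (1.18 to 1.52, limma adjusted p = 0.00804) and 1.27-fold in wt (1.12 to 1.44, adjusted p = 0.0255). Sdhc, the other anchor, read 3049, 2925 and 2987 on the Myc ko and 2962, 2856 and 2851 on the Myc wt arrays, against 2597, 2748 and 2699 on the GFP ko and 2591, 2635 and 2549 on the GFP wt arrays. Its groups did not overlap, and at 1.11-fold in both genotypes it passed in ko and missed in wt (limma adjusted p = 0.0459 and 0.0572), where the block gave 0.0375. The call of Sdhc in ko was lost in 12 of 13 alternative fits.

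Sdhb, the iron-sulfur subunit, read 1861, 2070 and 2075 on the Myc ko and 1766, 1798 and 1756 on the Myc wt arrays, against 1554, 1785 and 1545 on the GFP ko and 1438, 1585 and 1239 on the GFP wt arrays. It had a fold of 1.23 in ko and 1.25 in wt, with limma adjusted p of 0.0577 and 0.0517, and passed in both with the block (0.0149 and 0.0121). Sdha, the flavoprotein that binds succinate, read 2842, 2547 and 2710 on the Myc ko and 3361, 2840 and 2975 on the Myc wt arrays, against 2291, 2261 and 2447 on the GFP ko and 2884, 2669 and 2652 on the GFP wt arrays. The groups were apart in ko and overlapped in wt. Its fold was 1.16 in ko and 1.12 in wt (limma adjusted p = 0.0939 and 0.26), and with the block it passed in ko alone (0.0239 against 0.0856 in wt).

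In complex III, Uqcrc2, a core protein, had the lowest adjusted p, and the small subunit Uqcr10 had the largest difference. Uqcrc2 read 6502, 6334 and 6612 on the Myc ko arrays and 6899, 6480 and 6461 on the Myc wt arrays. It read 5001, 5375 and 5297 on the GFP ko arrays and 5811, 5580 and 5055 on the GFP wt arrays. With no overlap, it rose 1.24-fold in ko (1.13 to 1.36, limma adjusted p = 0.00835) and 1.21-fold in wt (1.10 to 1.33, adjusted p = 0.0201). Uqcrc1, the other core protein, read 3900, 3591 and 4284 on the Myc ko and 4205, 3905 and 4648 on the Myc wt arrays, against 2992, 2889 and 3197 on the GFP ko and 3325, 3445 and 3784 on the GFP wt arrays. It rose 1.29-fold in ko (limma adjusted p = 0.018). In wt its 1.21-fold difference missed without the block (adjusted p = 0.0842) and passed with it (0.00398).

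Uqcr10, a small subunit, rose 1.38-fold in ko (limma adjusted p = 0.0427), and had 1.24-fold in wt (0.197, and 0.0119 with the block). The call of Uqcr10 in ko was lost in 8 of 13 alternative fits. Uqcrfs1, the Rieske iron-sulfur protein, had 1.18-fold in ko and 1.24-fold in wt and passed in neither fit. Uqcrb was the gene of complex III with negative differences, at 0.979-fold and 0.948-fold, and its groups overlapped.

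In complex V, Atp5a1, the alpha subunit of the catalytic head, read 5617, 5356 and 5787 on the Myc ko arrays and 5615, 5275 and 5692 on the Myc wt arrays. It read 4318, 4749 and 5027 on the GFP ko arrays and 4616, 4928 and 4371 on the GFP wt arrays. The groups did not overlap, and the fold was 1.19 in both genotypes (limma adjusted p = 0.0388 in ko and 0.0476 in wt). The call of Atp5a1 was lost in 8 of 13 alternative fits in ko and in 9 of 13 in wt. Atp5b, the catalytic beta subunit, was 1.09-fold and 1.07-fold and did not pass.

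The other complex V genes that rose in ko belong to the stalk or the membrane part. Atp5o, the stalk subunit that gives oligomycin sensitivity, read 4156, 4309 and 4010 on the Myc ko and 3319, 3417 and 3313 on the Myc wt arrays, against 2892, 3513 and 3433 on the GFP ko and 2617, 3157 and 2606 on the GFP wt arrays. It rose 1.27-fold in ko (limma adjusted p = 0.0292) and was 1.20-fold in wt (0.101, and 0.024 with the block). Atp5mpl, a small proteolipid, read 1751, 1954 and 1899 on the Myc ko and 1496, 1550 and 1522 on the Myc wt arrays, against 1237, 1554 and 1583 on the GFP ko and 1259, 1323 and 1294 on the GFP wt arrays. It rose 1.29-fold in ko (limma adjusted p = 0.0209) and was 1.18-fold in wt (0.136, and 0.0311 with the block). Atp5k, the e subunit, read 697, 730 and 799 on the Myc ko and 681, 678 and 689 on the Myc wt arrays, against 604, 654 and 631 on the GFP ko and 609, 607 and 598 on the GFP wt arrays. All Myc arrays were higher, at 1.18-fold in ko and 1.13-fold in wt (limma adjusted p = 0.0225 and 0.0928, and 0.0471 in wt with the block). Atp5j2, the f subunit, rose 1.15-fold in ko (limma adjusted p = 0.0296).

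Atp5g1, Atp5g2 and Atp5g3 encode the same mature c subunit of the rotor ring. Atp5g3 read 4185, 4209 and 4281 on the Myc ko and 5202, 5004 and 4832 on the Myc wt arrays, against 2775, 3919 and 3455 on the GFP ko and 4338, 4660 and 3860 on the GFP wt arrays. It was 1.26-fold in ko and 1.17-fold in wt, and Atp5g1 was 1.15-fold and 1.07-fold. Atp5g2 was 1.12-fold and 1.09-fold. None of the 3 passed without the block, and in ko all 3 passed with it (limma adjusted p = 0.00967 for Atp5g1, 0.0432 for Atp5g2 and 0.0376 for Atp5g3). Atp5g2 has 3 probe sets and Atp5g1 has 2, and probes of close copies can share signal, so these values are less certain.

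Complex IV, cytochrome c oxidase, had 0 of 17 genes past the threshold in both genotypes, with 8.58% and 6.17% of all genes as the share that rose. Without adjustment 1 of the 17 genes in ko and 0 in wt had a limma p below 0.05, where 4790 and 4072 of all 19938 genes did. Single-gene 95% intervals reached from -0.34 to 0.44 in ko and from -0.40 to 0.57 in wt on the log2 scale. Cox6c, a small subunit, read 11431, 11504 and 11153 on the Myc ko and 11525, 11283 and 11076 on the Myc wt arrays, against 10887, 10940 and 10756 on the GFP ko and 10912, 10372 and 11244 on the GFP wt arrays. The groups were apart in ko and overlapped in wt, at 1.05-fold and 1.04-fold. Cox5b, a zinc-binding subunit, had the lowest adjusted p of the class in ko, 0.149 in limma, at 1.11-fold.

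The largest complex IV difference in ko was that of Ndufa4, with 1262, 1367 and 1285 on the Myc ko arrays against 958, 1354 and 1163 on the GFP ko arrays, groups that overlap. It was 1.14-fold (limma adjusted p = 0.369). In wt it was that of Cox6b2, at 1.18-fold (adjusted p = 0.48).

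Several complex IV subunits exist as a common form and a form found mainly in muscle, lung or testis. The 7 muscle, lung or testis forms had median log2 differences with Myc of -0.09 in ko and -0.02 in wt. The other 10 complex IV genes had 0.07 and 0.09, and 0 of them passed. This split was made after values were seen and was not tested. Common Cox4i1 was 1.11-fold in both genotypes, and the lung form Cox4i2 was 0.929-fold in ko and 0.892-fold in wt. Cox6a1 was 1.02-fold in both, and its muscle form Cox6a2 0.937-fold and 0.917-fold. Cox6b1 was 1.07-fold and 1.10-fold, and its testis form Cox6b2 1.07-fold and 1.18-fold. For Cox7a2 the folds were 1.06 and 1.01, and for its muscle form Cox7a1 they were 1.04 in each. Cox7b had 1.03-fold and 0.981-fold, and the testis form Cox7b2 had 1.02-fold and 1.05-fold. For Cox8a they were 1.04 and 1.09, for the muscle form Cox8b 0.942 and 0.988, and for the testis form Cox8c 0.940 and 0.977. Ndufa4l2, the relative of Ndufa4, had 0.992-fold and 1.03-fold. No member of these pairs passed with Myc, with or without the block, and Cox7b2, Cox8b, Cox8c and Ndufa4l2 read 32.3 to 93.6 on all arrays, below the median of all probe sets.

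**Figure D3:**
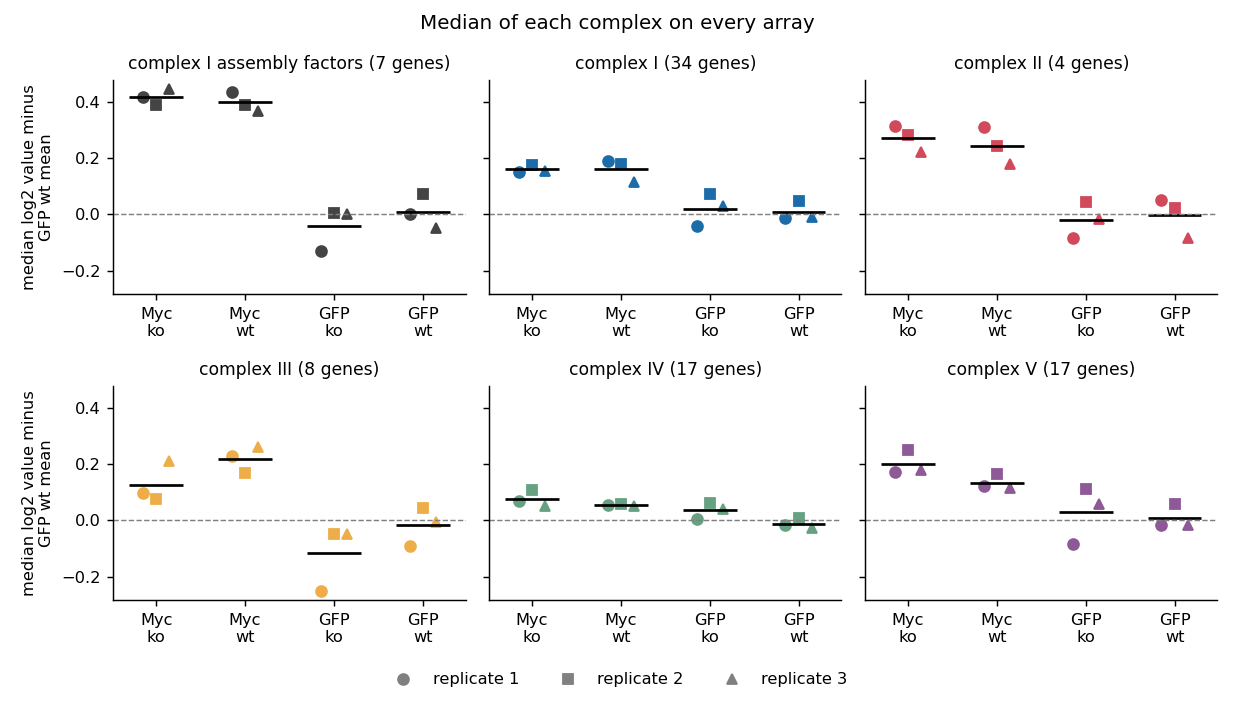
Median over the genes of a class of the log2 value minus the gene's mean on the GFP wt arrays, for each of the 12 arrays, with black bars for group means and symbols for replicate numbers. For complex I assembly the Myc arrays lie at 0.37 to 0.44 and the GFP arrays at -0.13 to 0.07, and for complex IV the Myc arrays lie at 0.05 to 0.11 and the GFP arrays at -0.03 to 0.06.

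Relative to the GFP wt mean, the order of the classes varied on single arrays. On the Myc ko arrays this value holds the ko against wt difference as well as the Myc difference. Complex III stood at 0.10, 0.07 and 0.21 there, below complex V on arrays 1 and 2 (0.17 and 0.25) and below complex IV on array 2 (0.11). Against the same-numbered GFP ko arrays, complex III was above both in every pair. Its medians were 0.38, 0.13 and 0.22, against 0.25, 0.11 and 0.11 for complex V and 0.07, -0.01 and 0.04 for complex IV. Relative to the GFP wt mean, complex I assembly stood at 0.42, 0.39 and 0.44 on the Myc ko arrays and 0.43, 0.39 and 0.37 on the Myc wt arrays, against -0.13, 0.00 and 0.00 on the GFP ko arrays and 0.00, 0.07 and -0.05 on the GFP wt arrays. Complex II stood at 0.31, 0.28 and 0.22 on the Myc ko and 0.31, 0.24 and 0.18 on the Myc wt arrays, against -0.08, 0.04 and -0.02 on the GFP ko and 0.05, 0.02 and -0.09 on the GFP wt arrays. In complexes I, II, III and V and in complex I assembly all Myc arrays were above all GFP arrays. For complex V the margin was small, with 0.116 on Myc wt array 3 against 0.113 on GFP ko array 2. In complex IV the Myc arrays, at 0.05 to 0.11, overlapped the GFP arrays, at -0.03 to 0.06. GFP ko array 1 was the lowest array for complexes I, III and V and for complex I assembly. Leaving it out lowered the count of genes that rose in ko to 11, where 5.22% of all genes then rose, and leaving out Myc ko array 3 lowered it to 9, where 4.69% did.

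The Myc differences were alike in both genotypes gene by gene. Across the 89 genes the log2 differences in ko and in wt, which share no arrays, correlated at 0.89, as a description over genes that are not independent replicates. In all 6 same-numbered Myc and GFP pairs 51 genes were higher with Myc and 2 were lower, where 18.5% and 13.7% of all genes were. The test of whether the Myc difference itself differed between genotypes passed for 0 of the 89 genes, and for 0% of all genes, in limma. With the replicate block it passed for 0 of the 89 and 0.00502% of all genes. Without adjustment 0 of the 89 genes and 343 of all 19938 genes had a p below 0.05 (1.72%). The genotype differences in Myc response ranged from -0.13 to 0.25 on the log2 scale, the highest for Ndufaf4, and the 95% intervals reached 0.14 to 0.68 to either side, with a median of 0.26. Differences smaller than that could not be seen with 3 arrays a group.

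**Figure D4:**
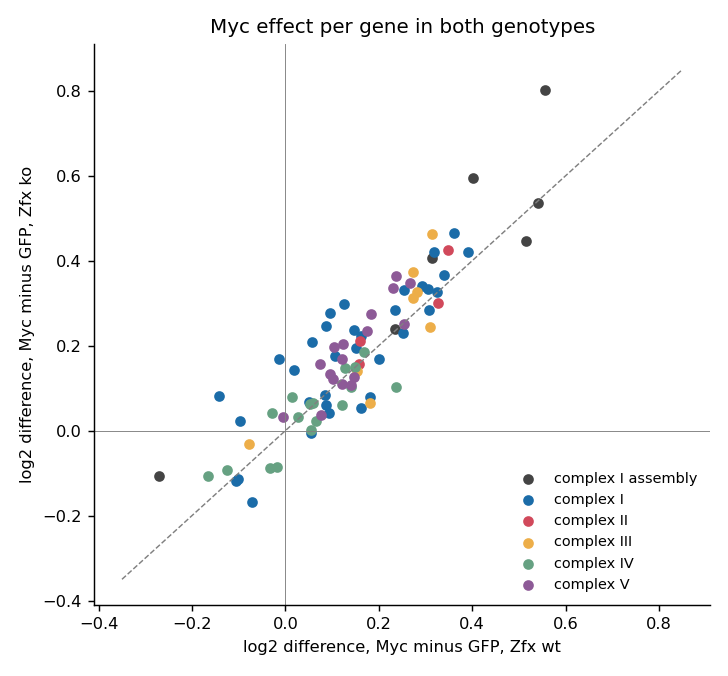
Log2 difference, Myc minus GFP, of each gene on the arrays labelled Zfx ko (y axis) and Zfx wt (x axis), coloured by class; the dashed line marks equal differences and Cox7a2l and Ndufa4l2 are not drawn. Points follow the line (r = 0.89 over the 89 genes). Of complex I assembly, Ndufaf1, Ndufaf4, Ndufaf5 and Ndufaf6 lie at the top right, and Ndufaf3 lies below 0 on both axes. Most complex IV genes lie near 0.

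The comparison of arrays labelled ko with wt asks whether the same genes differ with the Zfx label under each virus, and it gave few calls. With Myc virus 3 of 89 genes passed, 2 higher and 1 lower, where 1.74% of all genes were higher and 3.72% lower. With GFP virus 2 of 89 passed, 1 higher and 1 lower, where 1.17% of all genes were higher and 2.94% lower. These shares are near those of all genes. With Myc virus the ko arrays lay above all wt arrays for 20 of the 89 genes and below for 6, where 8.4% and 11.1% of all genes did, and with GFP virus above for 6 and below for 7, where 7.44% and 10.5% did. With the block 5 passed with Myc virus (4 higher and 1 lower, against 6.05% and 8.03% of all genes) and 8 with GFP virus (3 higher and 5 lower, against 5.12% and 7.12%). Over the 89 genes the ko against wt differences with Myc virus and with GFP virus, which share no arrays, correlated at 0.84.

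Cox7a1, the muscle form of a complex IV subunit, was higher with the ko label under both viruses. It read 394, 346 and 367 on the Myc ko arrays and 290, 253 and 286 on the Myc wt arrays. With GFP it read 332, 393 and 336 on the ko arrays and 260, 278 and 261 on the wt arrays. No ko array overlapped a wt array, and the fold was 1.33 with Myc (1.18 to 1.52, limma adjusted p = 0.0166) and 1.33 with GFP (1.17 to 1.51, adjusted p = 0.0216). The call of Cox7a1 was lost in 4 of 13 alternative fits under each virus. Its common form Cox7a2 was 1.10-fold with Myc and 1.05-fold with GFP and did not pass.

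Ndufa8 was lower with the ko label under both viruses. It read 1949, 1901 and 2134 on the Myc ko arrays and 2338, 2417 and 2487 on the Myc wt arrays. With GFP it read 1488, 1626 and 1637 on the ko arrays and 1865, 2095 and 1908 on the wt arrays. All ko arrays lay below the wt arrays of the same virus, at 0.826-fold with Myc (0.745 to 0.915, limma adjusted p = 0.0403) and 0.810-fold with GFP (0.731 to 0.898, adjusted p = 0.0322). In this fit Ndufa8 thus differed along both axes, higher with Myc and lower with the ko label. Its ko against wt call was lost in 9 of 13 alternative fits under each virus, with GFP virus whenever 1 array was left out.

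Atp5g2 read 8614, 8563 and 8309 on the Myc ko arrays and 7351, 7343 and 7318 on the Myc wt arrays. With GFP it read 7256, 7510 and 7935 on the ko arrays and 7077, 6698 and 6491 on the wt arrays. The ko arrays were higher under both viruses, at 1.16-fold with Myc (1.07 to 1.25, limma adjusted p = 0.0411) and 1.12-fold with GFP (adjusted p = 0.131). Its call with Myc was lost in 10 of 13 alternative fits. Atp5g3 pointed the other way at 0.843-fold with Myc and 0.784-fold with GFP (limma adjusted p = 0.32 and 0.134). The remaining member of the trio, Atp5g1, was at 1.06-fold and 0.995-fold.

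A few more genes passed only with the replicate block. With Myc virus these were Atp5o at 1.24-fold and Atp5mpl at 1.23-fold (limma adjusted p = 0.0163 and 0.0162 with the block, 0.0828 and 0.0913 without). With GFP virus Cox6b2 was 1.48-fold, with 466, 325 and 330 on the ko arrays against 291, 216 and 245 on the wt arrays (adjusted p = 0.0709, and 0.0235 with the block). Sdha was 0.853-fold (0.138, and 0.0294 with the block) and Uqcrc1 0.861-fold (0.26, and 0.0181 with the block), both without overlap between ko and wt arrays. The other 3 were Ndufv2 at 0.831-fold (0.0988, and 0.0108 with the block), Ndufc2 at 0.883-fold (0.242, and 0.0488) and Atp5e at 1.13-fold (0.255, and 0.0417), also without overlap. All 8 complex III genes had negative ko against wt differences under both viruses, where 49.4% of all genes with Myc and 47.9% with GFP had positive ones. Their medians were -0.07 with Myc and -0.11 with GFP, and 0 passed without the block. The medians of the same-numbered pairs were -0.10, -0.09 and -0.02 with Myc and -0.23, -0.09 and -0.01 with GFP. These 8 genes were read on the same arrays and are not independent replicates. The largest differences of single genes were those of Uqcrfs1 with Myc, at 0.844-fold, and of Uqcrc1 with GFP.

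**Figure D5:**
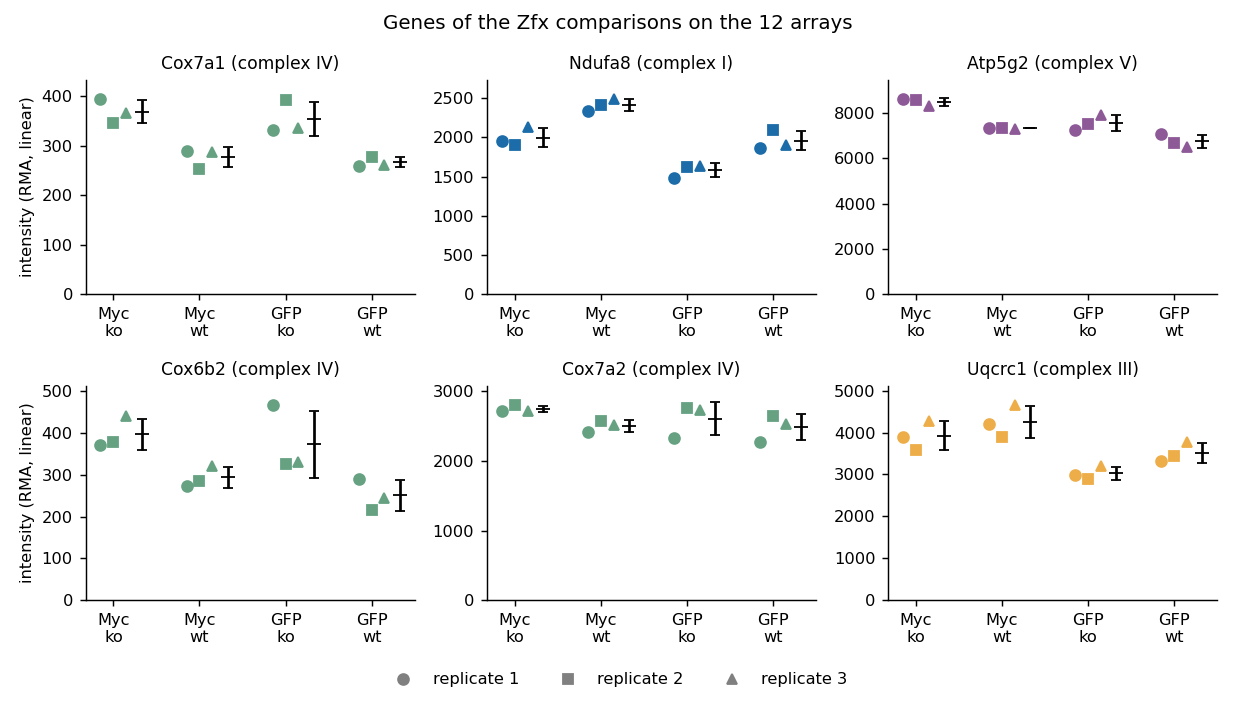
Linear RMA intensity on the 12 arrays of genes named in the ko against wt comparisons, with the mean and SD of 3 arrays beside each group, symbols for replicate numbers and axes from 0. Cox7a1 lies higher and Ndufa8 lower on the ko than on the wt arrays with each virus, and Cox7a2 overlaps with GFP.

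Marker lists also moved with the genotype label. Of 14 mast cell and basophil markers 5 were lower in ko than wt with Myc and 3 with GFP (6 and 6 with the block). Of all genes 3.72% were lower with Myc and 2.94% with GFP (8.03% and 7.12% with the block). The summed intensity of these markers was 6410 to 10271 on the Myc ko and 11937 to 26944 on the Myc wt arrays, against 14193 to 20166 on the GFP ko and 24714 to 31866 on the GFP wt arrays. Of 8 erythroid markers 4 were higher in ko with Myc and 0 passed with GFP (6 and 1 higher with the block). Of all genes 1.74% were higher with Myc and 1.17% with GFP (6.05% and 5.12% with the block). The part of these marker lists in the results on Cox7a1, Ndufa8 and Atp5g2 was not tested.

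Genes that build or feed the chain were compared with the same fit, in which 8.58% of all genes rose with Myc in ko and 6.17% in wt (14.5% and 12.2% with the block). Assembly factors of complexes II to V rose with Myc for 12 of 28 measured genes in ko and 6 in wt, and 16 in each with the block. Cox10, which makes the haem of complex IV, rose 1.40-fold in ko and 1.27-fold in wt (limma adjusted p = 0.00176 and 0.00981), and Tmem70, an assembly factor of ATP synthase, rose 1.51-fold and 1.54-fold (adjusted p = 0.0135 and 0.014). Of 6 further assembly factors of complex I, 4 rose in ko and 2 in wt, led by Ecsit at 1.56-fold and 1.74-fold (limma adjusted p = 0.00366 and 0.00257). Among 16 genes of cytochrome c and ubiquinone synthesis 7 rose in ko and 5 in wt (10 and 8 with the block). Coq10b, which binds ubiquinone, fell with the block alone, in wt (0.845-fold, limma adjusted p = 0.644 without the block and 0.0192 with it). Coq7, which hydroxylates the ubiquinone ring, rose 1.39-fold and 1.23-fold (limma adjusted p = 0.0019 and 0.0196).

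Of 19 genes that copy, transcribe or regulate mitochondrial DNA and its nuclear partners, 6 rose with Myc in each genotype. Of all genes 8.58% rose in ko and 6.17% in wt. With the block 10 rose in each genotype, where 14.5% of all genes did in ko and 12.2% in wt. Twnk, the mitochondrial DNA helicase, rose 1.93-fold in ko and 1.68-fold in wt (limma adjusted p = 0.000603 and 0.00257), and Lrpprc, which stabilises mitochondrial mRNA, rose 1.55-fold and 1.46-fold (adjusted p = 0.000965 and 0.00267). Nrf1, whose letters were searched for in the promoters above, was 0.794-fold in ko against wt with Myc and 0.805-fold with GFP (limma adjusted p = 0.0171 and 0.027). The 2 mitochondrially encoded subunits measured, ND3 and COX2, passed in 0 comparisons. Cox14, an assembly factor of complex IV, was lower with the ko label under both viruses, at 0.721-fold with Myc and 0.702-fold with GFP (limma adjusted p = 0.00452 and 0.00333).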

How the data were processed

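The deposited table lists linear intensities by probe set. The authors computed them by RMA, per the submitters' processing notes, which record no software version among the sources used here. The values are linear (17.7 to 24493 over the 12 arrays), although the analysis plan took log2 values, so log2 was taken and no pseudocount was added. RMA makes each value relative to its array. Genes were named from the platform's probe table, and 1 probe set per gene was kept, the brightest by mean over the arrays. Groups came from the sample titles. Comparisons used limma 3.58.1 in R 4.3.3 (lmFit, eBayes) with 4 group means over 12 arrays, no filter on dim probe sets, and Benjamini-Hochberg adjustment over 19938 genes. The fit was also run on simulated data with noise independent between arrays. That run lacked the shared deviations of same-numbered arrays described below, so it cannot check the fit for them.

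Labels give replicate numbers without saying what they share. Over all genes, correlations of the deviations from group means ran from 0.401 to 0.848 for arrays of 1 number (18 pairs, median 0.639; -0.42 between different numbers, which follows in part from taking deviations from group means), so the numbers pair the arrays and a fit with the number as a block is given where it changes a call. Genes given in full are all Sdh genes, per comparison and complex up to 3 genes with the lowest adjusted p past the threshold, any gene past it in the opposite direction, the largest difference where none passes, and subunit isoform pairs; from the other lists, up to 4 genes past the threshold. Members and lists were chosen with earlier results of these data known. Promoter windows on chromosome 18 were not used. Alternatives were the block, scaling, other variance settings, filters, all probe sets and leaving out each array. Arrays have no counts, so their number limits the precision.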

Additional observations from a re-analysis of the deposited data

Results flagged for a closer look

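Ndufb7, an accessory subunit of complex I, was the gene whose ko against wt difference ran in opposite directions under the 2 viruses in every same-numbered pair, higher in ko with Myc and lower in ko with GFP. It read 1369, 1202 and 1345 on the Myc ko and 1275, 1156 and 1237 on the Myc wt arrays, against 1104, 1275 and 1330 on the GFP ko and 1382, 1284 and 1383 on the GFP wt arrays. The log2 difference between the effects was 0.22 (95% interval from 0.979-fold to 1.39-fold), and limma's interaction test did not pass, with an adjusted p of 1.00.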

How the results depend on the processing

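With the replicate block the count of genes past the threshold was 37 for Myc against GFP in ko, 29 in wt, 5 for ko against wt with Myc and 8 with GFP. Fitting only the groups compared gave 8 for Myc in ko, 1 for ko against wt with Myc and 0 with GFP. Centring the arrays and testing all probe sets each gave 1 for both ko against wt comparisons, and a second quantile normalization gave 5 with Myc. The complex V median of ko against wt with Myc was 0.0561 after the second quantile normalization and 0.0128 over all probe sets. The cause was not tested.

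Leaving out 1 array gave 9 to 23 genes for Myc in ko and 1 to 13 in wt, 0 to 1 for ko against wt with Myc, 0 to 3 with GFP and 0 to 0 for the interaction. For Myc in ko, 11 genes passed without GFP ko array 1 and 9 without Myc ko array 3. For Myc in wt, 5 passed without Myc wt array 1 (4 higher and 1 lower), 4 without Myc wt array 3, 7 without GFP wt array 1 and 1 without GFP wt array 3, where 2.82% of all genes rose. Leave-one-out medians ranged from 0.0193 to 0.062 for complex IV with Myc in ko, -0.0174 to 0.0454 for complex II and 0.0441 to 0.0861 for complex V in ko against wt with Myc, and -0.00941 to 0.0874 for complex V with GFP. For the interaction they ranged from -0.0116 to 0.0725 for complex I, -0.00479 to 0.0701 for II, -0.0434 to 0.064 for III, -0.0338 to 0.037 for IV, -0.0183 to 0.0878 for V and -0.0098 to 0.149 for complex I assembly. No call of a single gene reversed under the alternatives run. Of the 24 genes called in ko, 7 passed under every alternative (Ndufa10, Ndufab1, Ndufaf4, Ndufaf5, Ndufaf6, Sdhd and Uqcrc2), as did 1 of the 11 in wt (Ndufaf6) and 0 of the 2 and 3 called for ko against wt. Paired values are those of the replicate block. The NRF1 letters 1 base longer, an alternative added after the data were seen, lowered the share of windows in each set, to 24.4% for these genes, 6.94% for the genes tested and 4.60% for all. Centring moved the median of all genes by less than 0.1.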
